A study of Aquilegia coerulea with 32 samples.

Results

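The early plateau genes of *Aquilegia coerulea* floral buds are loci whose level was already higher at stage 2 than at stage 1. Their later means stayed within set bounds around the stage 2 mean. The loci were chosen on the deposited TPM (a read level scaled for transcript length and library size). The rule takes the mean TPM of the 8 libraries of each stage and asks for a mean of at least 2 TPM at stage 2, at least 1.8 times the stage 1 mean, and for stage 3 and stage 4 means each between 0.6 and 1.6 times the stage 2 mean. At least 6 of the 8 stage 2 libraries must also lie above the highest library but one of stage 1, and loci that carry a published *Aquilegia* symbol are left out. Of 30023 loci, 43 met the rule. All 4 stages entered the choice, so the levels by stage given here describe the members and were not tested.

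The buds came from wild-type plants of the cultivar Kiragami, and the labels name the tissue as floral meristems. The stages follow the order in which organs form: stage 1 (s1) falls within stamen initiation, stage 2 (s2) between the last staminodes and the first carpels, stage 3 (s3) in early carpel outgrowth, and stage 4 (s4) after the meristem has been spent on carpels. Each of the 8 libraries per stage, 32 in all, was made from 2 buds of separate plants at s1, s2 and s3 and from 1 bud at s4, with 3 sepals removed from every bud, so that other sepals, stamens and carpels were sampled along with the meristem. Fewer plants than buds were used, so some libraries share a plant, the labels do not say which, and the tests treat all libraries as independent. In such bulk samples, fewer cells of a type and less RNA per cell cannot be told apart.

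A flower is built while its meristem still divides, and each new primordium soon begins to differentiate an epidermis, a cuticle and vascular strands. Cytokinin keeps meristem cells dividing and is removed by cytokinin oxidases, and gibberellin and abscisic acid act on growth and on water balance. Cutin, waxes, lignin and pectin are laid down by enzyme families such as lipases, acyltransferases, coenzyme A ligases and pectin-modifying proteins, and members of several of these families were among the 43 loci.

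Library totals ran from 21502103 to 31647297 estimated counts. The labelled tissue was checked on 4 meristem and boundary genes (AqSTM1, AqSTM2, AqPAN and AqCUC3), all of them above 0 in every library, whose summed level had medians of 265, 146, 92.6 and 50.4 TPM at s1, s2, s3 and s4. One library of s4, replicate 4, stood apart from the other libraries of its stage in many genes, and the ratios of s4 to s2 that change side of 1 or pass a bound of the rule without it are given both ways.

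The rule narrowed the loci in steps. A mean of at least 2 TPM at s2 was reached by 16963 loci, and in 241 of these the s2 mean was at least 1.8 times the s1 mean. The plateau condition was met by 91 of the 241, and 46 of the 91 also met the condition on single libraries. Without the plateau condition, 135 loci met the rest of the rule, and 75 of them went past 1.6 times the s2 mean at s3 or s4, while 14 went under 0.6 times. The bounds of 0.6 to 1.6 thus held 46 of the 135 early risers, a count that follows from the width of the bounds. Of the 46, 3 (AqCRC, AqMUTE and AqEPF1) carry a published symbol and are not members.

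The median member was at 4.65 TPM at s2 and 2.25 TPM at s1, with medians of 5.04 TPM at s3 and 5.68 TPM at s4. The ratio of the s2 to the s1 mean had a median of 2.08 and ran from 1.81 to 9.92. At s2, 22 members were under 5 TPM, 17 were between 5 and 30 TPM, and 4 were above 30 TPM: a lipid transfer protein at 569 TPM, a glycoside hydrolase at 472 TPM, a dehydrin at 91.0 TPM and an unnamed locus at 50.6 TPM. All 43 passed the filter on low values of the model fitted over all genes (edgeR, 20477 genes tested). In that fit 14 members were called higher at s2 than at s1, beside 0.488% of all genes tested (0.596% in either direction). These were *Aqcoe5G182600*, *Aqcoe2G168200*, *Aqcoe4G069100*, *Aqcoe7G098000*, *Aqcoe5G240300*, *Aqcoe2G080000*, *Aqcoe4G010700*, *Aqcoe7G337200*, *Aqcoe3G106900*, *Aqcoe1G268900*, *Aqcoe7G009800*, *Aqcoe6G077800*, *Aqcoe7G325200* and *Aqcoe3G288100*. A call needed an adjusted p (Benjamini-Hochberg, over all genes tested) under 0.05 and a difference of 1 or more on the log2 scale. The same call was met by 29 members at s3 against s1, beside 3.15% of all genes, and by 35 at s4 against s1, beside 7.31%. The rule used these contrasts, so the counts say nothing about the members beyond how they were chosen.

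**Figure D1:**
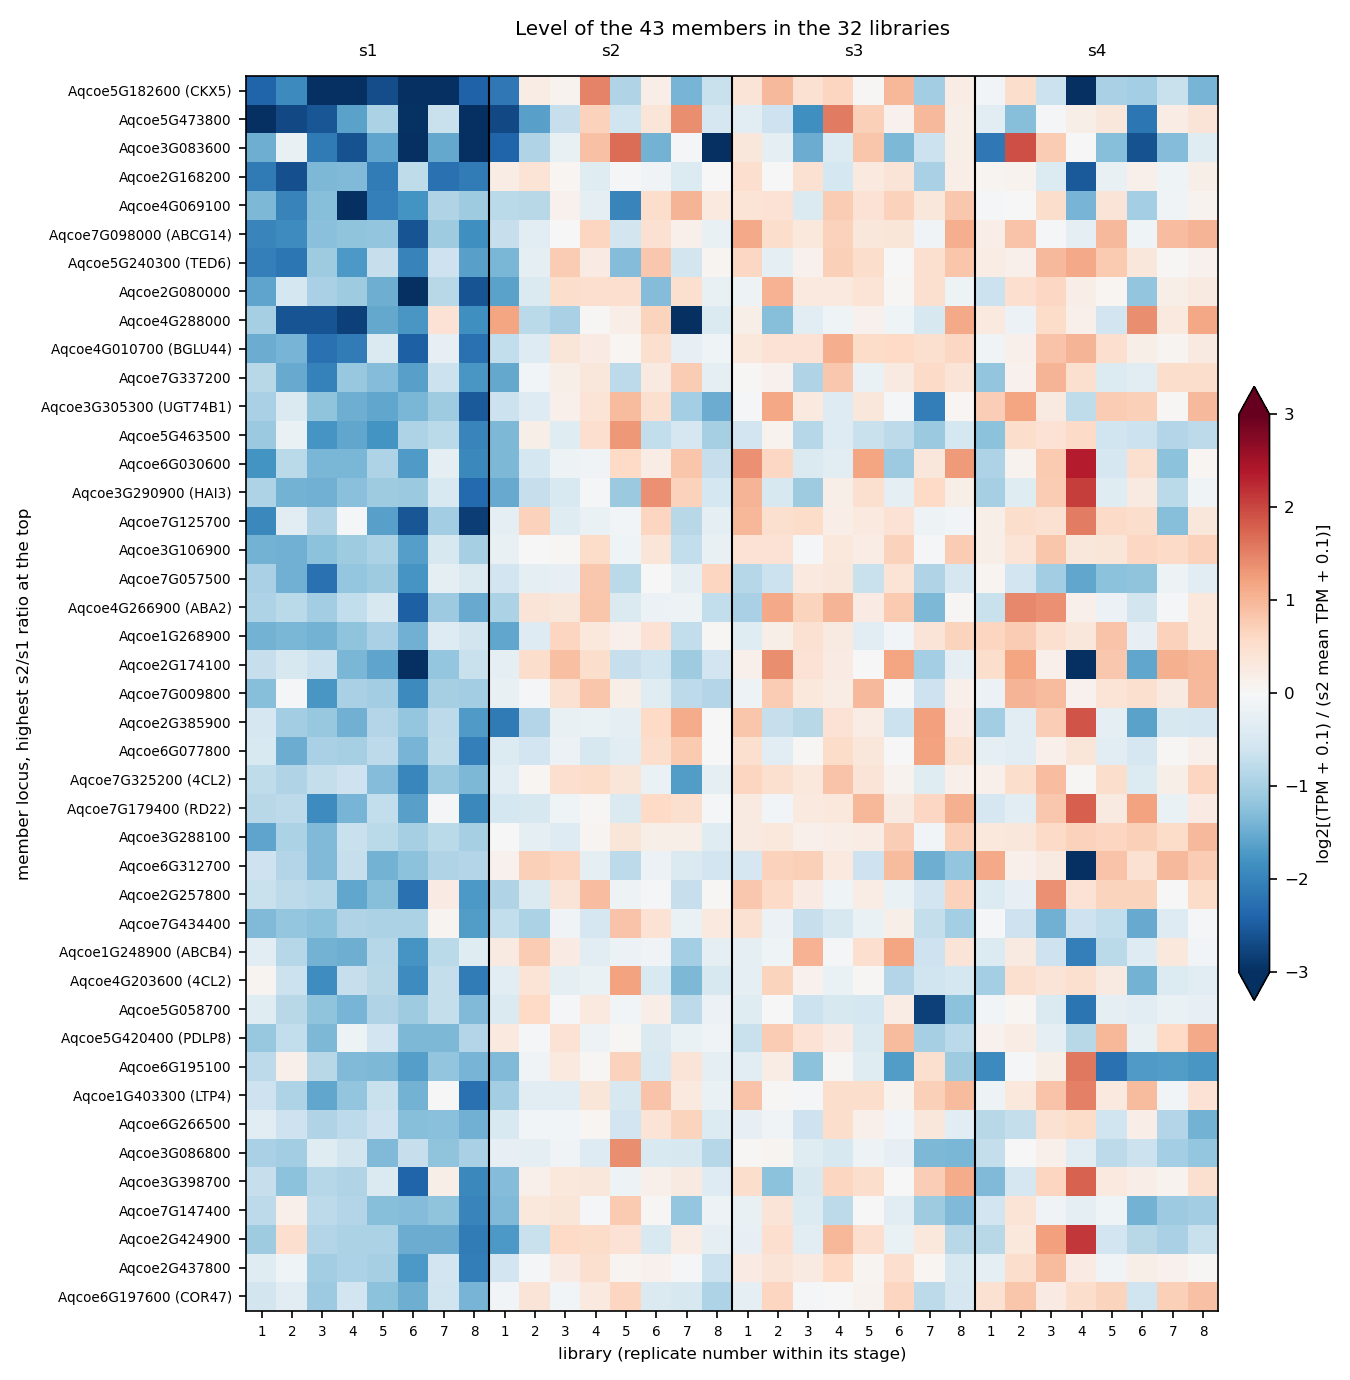
Level of each of the 43 members (rows, highest s2/s1 ratio at the top) in each of the 32 libraries (columns, grouped by stage), as log2 of TPM plus 0.1 over the s2 mean plus 0.1, with blue below and red above the s2 mean and colours cut off at 3 on either side. The s1 libraries are mostly blue, the other stages mix pale red and blue, and s4 replicate 4 holds both dark red and dark blue cells.

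Few members parted s2 from s1 in every library. All 8 s2 libraries lay above all 8 s1 libraries in 3 members, beside 0.127% of all genes tested: *Aqcoe2G168200*, *Aqcoe7G098000* and *Aqcoe3G288100*. At s3 the count was 11 members, beside 1.39% of all genes, and at s4 it was 7, beside 2.46%. The overlap came most often from the same few libraries: s1 replicate 7 was the highest s1 library in 17 members and s1 replicate 2 in 12, while s2 replicate 1 was the lowest s2 library in 20.

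The hormone genes among the members included the largest ratio of all. *Aqcoe5G182600* has as its best Arabidopsis hit *CKX5*, which encodes a cytokinin oxidase, an enzyme that breaks down cytokinin. In TPM, the lowest, median and highest values were 0, 0.246 and 0.562 in s1 libraries, 0.460, 2.01 and 6.91 at s2, 1.1, 3.22 and 4.85 at s3 and 0.0602, 1.31 and 3.46 in s4 libraries. The s2 mean was 2.38 ± 2.04 TPM, against 0.240 ± 0.193 TPM at s1 (SD, n = 8 each), with 7 of 8 s2 libraries and all 8 s3 libraries above every s1 library. Its s4 mean was 0.621 times its s2 mean, close to the lower bound of the rule, and 0.706 times without s4 replicate 4. The s1 estimated counts behind these levels were 0 to 25 per library, so the ratio rests on few reads.

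*Aqcoe7G098000* is the homolog of *ABCG14*, a transporter that in Arabidopsis moves cytokinin out of cells on the way from root to shoot. Lowest, median and highest values in TPM were 2.13, 4.57 and 6.28 in s1 libraries, 8.20, 12.3 and 20.9 at s2, 12.4, 18.2 and 29.2 at s3 and 10.9, 19.6 and 27.1 in s4 libraries. Every library of s2, s3 and s4 was above every library of s1, and the s2 mean of 13.3 ± 4.43 TPM was 2.96 times the s1 mean of 4.49 ± 1.52 TPM (SD, n = 8 each). The counts of this locus were not whole numbers in 90.6% of libraries, which in this pseudo-alignment means that reads were shared with another transcript. A second ABC transporter, *Aqcoe1G248900*, whose best hit *ABCB4* moves auxin in Arabidopsis roots, was far lower and returned towards its s1 level. It averaged 2.42 ± 0.899 TPM at s2 and 1.24 ± 0.464 TPM at s1, with 3.19 TPM at s3 and 1.91 TPM at s4. Its counts were not whole in 100% of libraries.

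Gibberellin and abscisic acid were each represented, though neither of the abscisic acid loci below was called between s2 and s1. *Aqcoe3G106900* belongs to the gibberellin-regulated family of small cysteine-rich secreted proteins and was one of the steadiest members. From lowest over median to highest, TPM was 5.84, 8.35 and 13.2 in s1 libraries, 11.1, 17.9 and 27.4 at s2, 17.7, 24.2 and 31.5 at s3 and 21.1, 26.3 and 33.2 in s4 libraries, so that only s2 touched the range of s1. *Aqcoe4G266900* has as its best hit *ABA2*, the dehydrogenase of the step before the last in abscisic acid synthesis, and its mean was 2.03 ± 0.902 TPM at s2 and 0.940 ± 0.346 TPM at s1, with 2.74 TPM at s3 and 2.79 TPM at s4. *Aqcoe3G290900*, the homolog of *HAI3*, encodes a protein phosphatase of the group that turns down abscisic acid signalling. It ranged from 3.40 to 25.6 TPM at s2 around a median of 6.99, against 1.90 to 7.16 TPM around a median of 4.28 at s1, and 4 of 8 s2 libraries were above every s1 library. Its s4 mean of 13.2 TPM rests on replicate 4 at 42.0 TPM and was 9.11 TPM without it, below the s2 mean of 9.89 TPM.

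**Figure D2:**
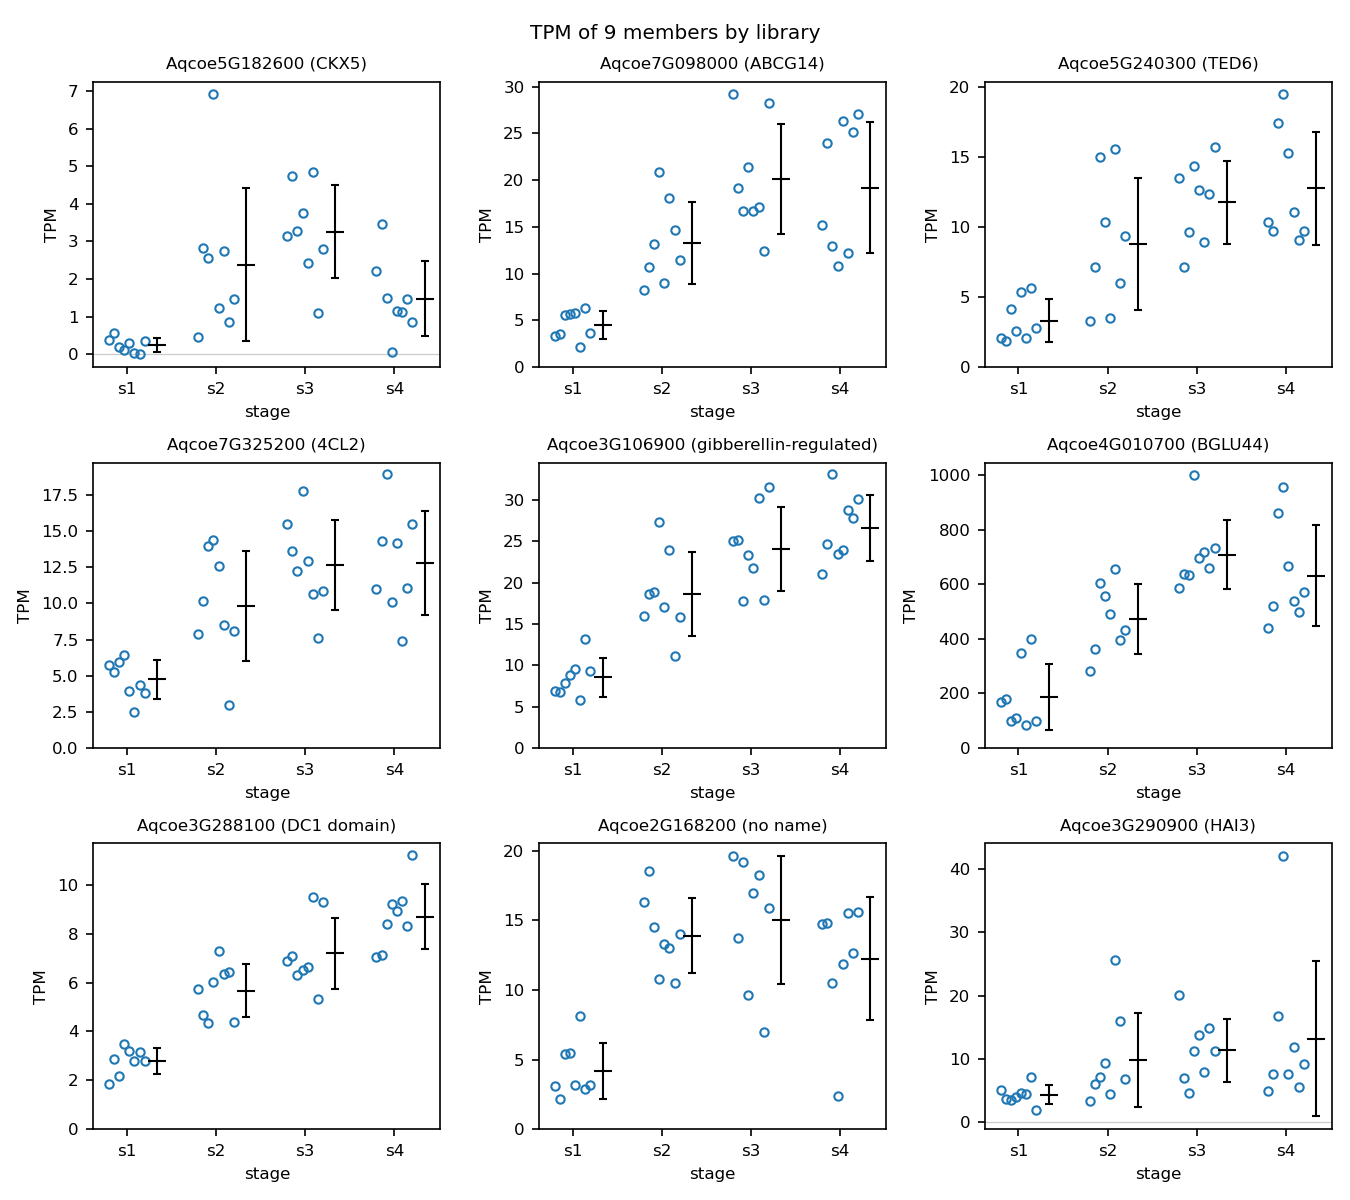
TPM of 9 members in each library (open circles, in replicate order from left to right) at s1, s2, s3 and s4, with the mean and SD of the 8 libraries (bar and whiskers) beside them. ABCG14, the DC1 domain locus and the unnamed *Aqcoe2G168200* have no s2 library within the range of s1, and HAI3 has single libraries at 25.6 TPM at s2 and 42.0 TPM at s4.

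*Aqcoe5G240300* is the homolog of *TED6*, a membrane protein needed for the secondary wall of xylem vessels in Arabidopsis. The TPM values had a lowest, median and highest of 1.87, 2.68 and 5.66 in s1 libraries, 3.31, 8.24 and 15.5 at s2, 7.10, 12.5 and 15.7 at s3 and 9.06, 10.7 and 19.5 in s4 libraries. The s2 libraries spanned from within the s1 range to well above it, and all libraries of s3 and s4 were above all of s1.

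*Aqcoe7G325200* and *Aqcoe4G203600* share the best hit *4CL2*, a 4-coumarate:CoA ligase that activates precursors of lignin and flavonoids. These loci differed in level and in course. *Aqcoe7G325200* had 3.0, 9.35 and 14.4 TPM as its lowest, median and highest value at s2, against 2.48, 4.81 and 6.41 TPM at s1, and kept 12.6 TPM at s3 and 12.8 TPM at s4 as means. *Aqcoe4G203600* averaged 2.23 ± 1.38 TPM at s2 and 1.15 ± 0.637 TPM at s1 (SD, n = 8 each), with 2.02 TPM at s3 and 2.15 TPM at s4, and its s2 and s1 libraries overlapped in all but 2 s2 libraries. The counts of *Aqcoe4G203600* were not whole in 62.5% of libraries, those of *Aqcoe7G325200* were whole in all.

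*Aqcoe7G009800* belongs to the pectin methylesterase and invertase inhibitor family, which acts on the stiffness of pectin and on sucrose cleavage. It averaged 6.09 ± 2.57 TPM at s2 and 2.92 ± 1.30 TPM at s1 (SD, n = 8 each), with 7.43 TPM at s3 and 9.06 TPM at s4, and s1 replicate 2 at 5.81 TPM lay within the s2 range. *Aqcoe2G080000*, of the HXXXD family of acyltransferases that acylate many plant metabolites, averaged 4.19 ± 2.04 TPM at s2 and 1.61 ± 0.875 TPM at s1, and all 8 of its s3 libraries (3.73 to 8.73 TPM) were above all s1 libraries (0.246 to 2.86 TPM).

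The list of lipid, wax and cutin words holds 82 of the 1919 annotated loci tested and 6 of the 28 named members, the HXXXD acyltransferase and 5 others. Among the 6 is *Aqcoe3G398700*, an AWPM-19-like membrane protein whose annotation names no lipid, wax or cutin role, so no excess is read from these counts. GDSL lipases, a large family of esterases some of which build cutin, accounted for 3 of the 6. *Aqcoe4G069100* had the highest ratio of the 3, with 3.60 ± 2.11 TPM at s2 and 1.12 ± 0.578 TPM at s1 (SD, n = 8 each), and its counts were not whole in 96.9% of libraries. Its s4 mean was 0.948 times its s2 mean, or 1.03 times without s4 replicate 4. *Aqcoe1G268900* averaged 2.33 ± 0.983 TPM at s2 and 1.08 ± 0.375 TPM at s1 and was at 3.38 TPM at s4, where all 8 libraries were above all of s1. Its counts were not whole in 84.4% of libraries. *Aqcoe2G257800* averaged 2.51 ± 1.15 TPM at s2 and 1.27 ± 0.787 TPM at s1, and only 2 of its s2 libraries were above every s1 library, since s1 replicate 7 reached 2.97 TPM.

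The most abundant member of all was the lipid transfer protein *Aqcoe1G403300*, the homolog of *LTP4*, one of the small secreted proteins that bind lipids at the epidermis. In TPM, the lowest, median and highest values were 121, 275 and 571 in s1 libraries, 278, 477 and 1030.4 at s2, 553, 817 and 1089.6 at s3 and 510, 737 and 1610.9 in s4 libraries. Its means were 1.42 times the s2 mean at s3 and 1.53 times at s4, or 1.34 times at s4 without replicate 4, so this locus lay near the upper bound of the plateau. *Aqcoe3G398700*, an AWPM-19-like membrane protein, was much lower, at 2.11 ± 0.655 TPM at s2 and 1.13 ± 0.649 TPM at s1.

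*Aqcoe7G179400* is the homolog of *RD22*, a BURP domain protein induced by dehydration, and ranged from 15.5 to 33.9 TPM at s2, against 5.77 to 21.5 TPM at s1, with medians of 21.0 TPM at s2 and 10.5 TPM at s1. Its s4 mean of 34.3 TPM was 28.1 TPM without replicate 4. *Aqcoe6G197600* is the homolog of *COR47*, a dehydrin, and was the member nearest to the 1.8 threshold, at 91.0 ± 31.9 TPM at s2 and 50.4 ± 14.8 TPM at s1. It was at 94.0 TPM at s3 and at 131 TPM at s4, so that most of its further gain fell between s3 and s4.

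*Aqcoe3G288100*, with a DC1 domain, had the smallest relative spread at s2 of the 3 members whose s2 libraries all lay above s1. Lowest, median and highest values in TPM were 1.83, 2.84 and 3.5 in s1 libraries, 4.33, 5.90 and 7.31 at s2, 5.35, 6.76 and 9.52 at s3 and 7.04, 8.67 and 11.2 in s4 libraries. All libraries of s2, s3 and s4 were above all of s1, and the s4 mean was 1.54 times the s2 mean. *Aqcoe7G125700*, a protein of the thioredoxin superfamily, averaged 3.06 ± 1.21 TPM at s2 and 1.34 ± 0.928 TPM at s1 (SD, n = 8 each).

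*Aqcoe6G030600* encodes a calcium-binding EF-hand protein and varied more than most. It ranged from 3.22 to 14.9 TPM at s2, against 2.10 to 6.89 TPM at s1, and reached 43.5 TPM in s4 replicate 4, without which its s4 mean was 0.982 times its s2 mean in place of 1.51 times. *Aqcoe5G473800*, of a heavy metal transport and detoxification family, had the second highest ratio of all members, 4.16, with 0.376 to 8.20 TPM at s2 and 0.115 to 1.88 TPM at s1, and 3 s2 libraries lay within the s1 range.

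Enzymes acting on sugars and small metabolites completed the named members. *Aqcoe4G010700*, the homolog of the glycoside hydrolase *BGLU44*, was the second most abundant member. Its counts were not whole in 90.6% of libraries, so its level includes reads shared with another transcript. From lowest over median to highest, TPM was 86.1, 139 and 399.8 in s1 libraries, 284, 460.2 and 656 at s2, 588, 677 and 999 at s3 and 439.9, 554 and 954 in s4 libraries. Of its s1 libraries, replicates 5 and 7 lay within the s2 range, and all libraries of s3 and s4 were above all of s1. *Aqcoe3G305300*, the homolog of the glucosyltransferase *UGT74B1*, which works in glucosinolate synthesis in Arabidopsis, averaged 2.21 ± 1.23 TPM at s2 and 0.890 ± 0.372 TPM at s1. Its s4 mean was 1.52 times its s2 mean, and 1.66 times without s4 replicate 4, past the bound of the rule.

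*Aqcoe6G077800* and *Aqcoe2G437800* are zinc-binding dehydrogenases of the alcohol dehydrogenase kind. *Aqcoe6G077800* averaged 11.5 ± 4.45 TPM at s2 and 5.55 ± 1.8 TPM at s1, and 15.3 TPM at s3. *Aqcoe2G437800* averaged 16.2 ± 4.09 TPM at s2 and 8.88 ± 3.73 TPM at s1 (SD, n = 8 each). *Aqcoe5G420400*, a homolog of the plasmodesmata protein PDLP8, averaged 2.17 ± 0.446 TPM at s2 and 1.13 ± 0.404 TPM at s1, and *Aqcoe5G463500*, with a DCD domain, averaged 3.1 ± 2.18 TPM at s2 and 1.34 ± 0.662 TPM at s1.

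The names above come from Arabidopsis best hits in the gene tables that accompany the study, which cover 28 of the 43 members. Those tables list loci picked on these same libraries, and no name was looked up elsewhere for the other 15. Among the 15 was *Aqcoe2G168200*, one of the 3 members whose s2 libraries all lay above s1. The TPM values had a lowest, median and highest of 2.16, 3.15 and 8.12 in s1 libraries, 10.5, 13.7 and 18.6 at s2, 6.98, 16.4 and 19.6 at s3 and 2.36, 13.7 and 15.6 in s4 libraries. The s2 mean was 13.9 ± 2.69 TPM, against 4.17 ± 1.99 TPM at s1 (SD, n = 8 each), and its s4 mean was 0.883 times the s2 mean, or 0.985 times without replicate 4.

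The other unnamed loci overlapped more. *Aqcoe3G083600* had a ratio of 3.52, with 0.248 to 12.6 TPM at s2 and 0.118 to 3.32 TPM at s1, and only 3 s2 libraries above every s1 library. *Aqcoe4G288000* ranged from 0.429 to 10.8 TPM at s2 and from 0.585 to 6.31 TPM at s1. *Aqcoe7G337200* averaged 5.83 ± 2.51 TPM at s2 and 2.32 ± 0.798 TPM at s1, with 6.78 TPM at s3 and 6.84 TPM at s4.

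The unnamed *Aqcoe6G195100* rested on 1 library at s4. It ranged from 20 to 81.1 TPM at s2, against 16.0 to 56.0 TPM at s1, and its s4 median was 15.5 TPM while replicate 4 reached 152 TPM. Without that library its s4 mean was 25.1 TPM, 0.497 times the s2 mean, and it no longer met the rule. *Aqcoe7G147400*, another of the 6 most abundant members, averaged 27.8 ± 12.3 TPM at s2 and 15.0 ± 7.21 TPM at s1, with 21.5 TPM at s3 and 20.9 TPM at s4. Its counts were not whole in 65.6% of libraries.

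The remaining 9 unnamed members lay between 2.51 TPM (*Aqcoe3G086800*) and 7.72 TPM (*Aqcoe2G174100*) at s2, with ratios to s1 between 1.85 (*Aqcoe2G424900*) and 2.16 (*Aqcoe7G057500*). Of these, *Aqcoe7G057500*, *Aqcoe7G434400*, *Aqcoe5G058700*, *Aqcoe6G266500* and *Aqcoe3G086800* were below their s2 mean at both later stages, with s4 means between 0.626 and 0.834 times the s2 mean. The other 4, *Aqcoe2G174100*, *Aqcoe2G385900*, *Aqcoe6G312700* and *Aqcoe2G424900*, were above it at both, between 1.15 and 1.45 times at s4. *Aqcoe2G424900* was at 0.933 times its s2 mean at s4 without replicate 4, which alone reached 18.3 TPM there, and *Aqcoe2G385900* was at 0.789 times without that library, which reached 24.7 TPM. Without it *Aqcoe6G312700* was at 1.65 times, past the bound of the rule, since replicate 4 was its lowest s4 library at 0.200 TPM. The counts of *Aqcoe2G424900* were not whole in 100% of libraries.

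The course after s2 differed among members. The s3 mean had a median of 1.21 times the s2 mean and the s4 mean a median of 1.30 times. Both later stages were above s2 in 27 members and both below it in 9. The highest of the 3 later means was at s4 in 23 members, at s3 in 11 and at s2 in 9. Only 6 members stayed within 20% of their s2 mean at both s3 and s4, while 15 were at least 1.2 times the s2 mean at both and 3 were at most 0.8 times. Without s4 replicate 4 the median ratio of s4 to s2 was 1.08, and the highest mean was at s4 in 17 members and at s3 in 17.

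The course after s2 was also counted apart for named and unnamed members. Of the 28 named members, 21 were above s2 at both later stages and 2 were below at both, against 6 and 7 of the 15 unnamed ones. The median ratio of s4 to s2 was 1.38 in named members and 0.883 in unnamed ones. The tables hold loci that the study picked for differences between stages, and the part of that choice in this split was not tested.

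**Figure D3:**
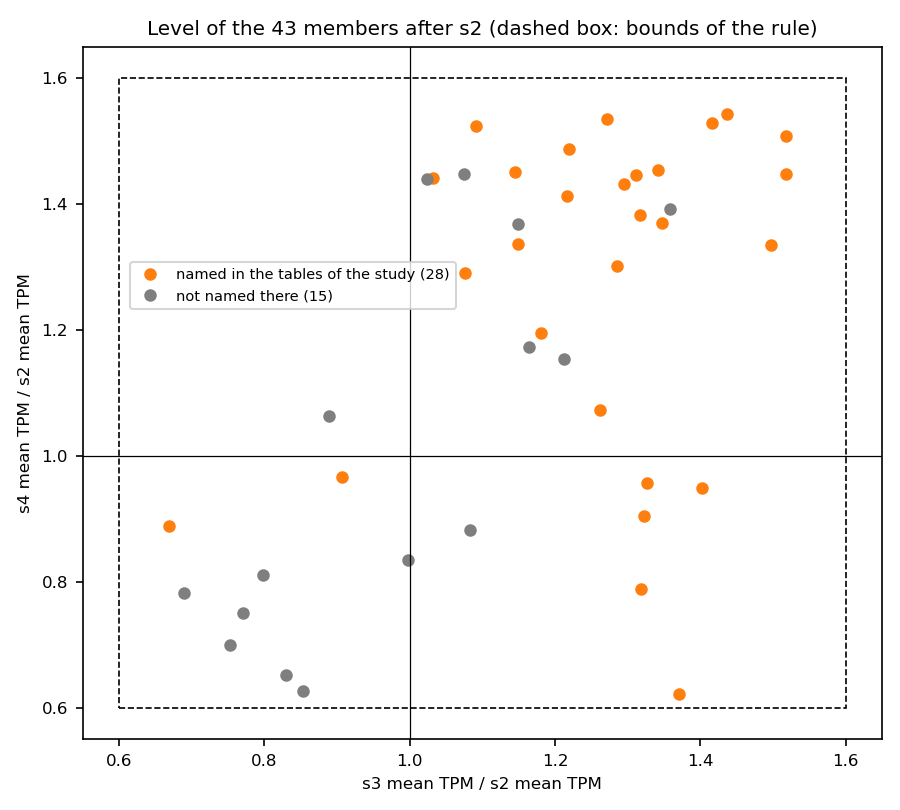
Ratio of the s3 mean to the s2 mean (horizontal) against the ratio of the s4 mean to the s2 mean (vertical) for the 43 members, in orange for the 28 named in the tables and grey for the 15 others, with the bounds of the rule dashed. Most orange points lie at the upper right, where both ratios are above 1 (21 of 28), and the grey points are split between the upper right (6) and the lower left (7).

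No member was called between s2, s3 and s4. In edgeR's quasi-likelihood test 0 of 43 passed in any of the 3 comparisons, beside 0.313% of all genes tested at s3 against s2, 5% at s4 against s2 and 1.19% at s4 against s3. DESeq2 also called 0 of the 43. An unadjusted p under 0.05 was reached by 4 members at s3 against s2, by 9 at s4 against s2 and by 4 at s4 against s3. The rule bounds the ratios of s3 to s2 and of s4 to s2 to between 0.6 and 1.6, which all but fixes the count of 0 there. It bounds the ratio of s4 to s3 only indirectly, and that ratio ran from 0.453 to 1.41 among members. Nothing is read from the counts.

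The median spread of the members within a stage was larger than that of all genes tested. The coefficient of variation over the 8 libraries had medians over the members of 44.5%, 43.1%, 35.6% and 43.2% at s1 through s4, beside 17.6%, 22.0%, 22.8% and 27.3% over all genes tested. At s2 22 of the 43 members were under 5 TPM, and all genes tested were not matched to the members for level. The parts of low levels and of the choice by the rule in this spread were not tested. The median over the members of the level in a library relative to the s2 mean was 0.298 to 0.572 at s1, 0.621 to 1.22 at s2, 0.903 to 1.25 at s3 and 0.785 to 1.4 at s4. The lowest s2 library, replicate 1 at 0.621, was just above the highest s1 library, replicate 7 at 0.572, an order that the choice of members favours.

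**Figure D4:**
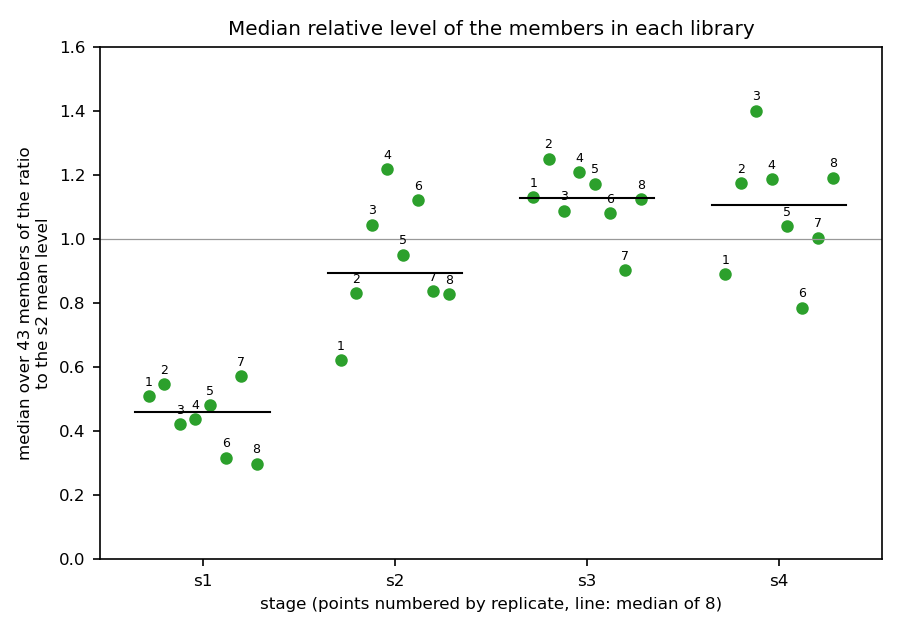
Median over the 43 members of the ratio of the level in a library to the s2 mean (TPM plus 0.1 in both), for each library (points numbered by replicate) by stage, with the median of the 8 libraries as a line. The s1 libraries lie between 0.298 and 0.572, s2 replicate 1 is the lowest of the later libraries at 0.621, and the ranges of s2, s3 and s4 overlap.

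The members did not vary as 1 block among libraries of the same stage. After the stage means of log2 CPM (counts scaled to library size) were taken away, the mean Pearson correlation over the 903 pairs of members was 0.16 across the 32 libraries, beside 0.000764 over all pairs of genes tested. It was 0.135 without s2 replicate 1 and 0.179 without s4 replicate 4, the lowest and highest values over all libraries left out in turn. The correlation was above 0.5 in 137 pairs, above 0.7 in 17 and below -0.5 in 27. Without s4 replicate 4 these counts were 141, 11 and 4, so the opposed pairs rest largely on that library. These correlations are descriptions, since the members share libraries and were chosen on them. Such pairs were not counted over all genes tested, and a mean near 0 can hold strong pairs of both signs.

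Members with high mutual correlation included several of the named ones. *Aqcoe1G403300* (LTP4) correlated with *Aqcoe3G290900* (HAI3) at 0.89 and with *Aqcoe7G179400* (RD22) at 0.88, and at 0.88 and 0.86 without s4 replicate 4. The LTP4, HAI3 and RD22 homologs, *Aqcoe3G398700* (AWPM-19-like) and *Aqcoe6G030600* (EF-hand) were highest of their stage in s4 replicate 4. Among s2 libraries LTP4 was highest in replicate 6, at 1030.4 TPM, and HAI3 likewise, at 25.6 TPM. The unnamed *Aqcoe6G195100* and *Aqcoe2G424900* correlated at 0.88, or 0.83 without that library. An opposed set held the unnamed *Aqcoe6G312700*, *Aqcoe2G174100* and *Aqcoe5G058700* with *Aqcoe1G248900* (ABCB4) and *Aqcoe5G420400* (PDLP8). *Aqcoe6G312700* correlated with *Aqcoe6G030600* at -0.72, or -0.56 without s4 replicate 4.

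These 2 sets lay along an axis shared by many genes. The first component of the residuals of all genes tested, after stage was taken away, held 38.7% of the variance within stages, and s4 replicate 4 had the highest value on it (0.573, the next 0.326 in s3 replicate 7). It correlated above 0.5 with 11 members and below -0.5 with 7, beside 27.8% and 29.9% of all genes tested. Without s4 replicate 4 it held 30.9% of the variance, and the counts of members were 9 and 6, beside 25.5% and 26.8% of all genes tested. The HAI3 homolog correlated with it at 0.84, or 0.77 without s4 replicate 4, and *Aqcoe6G312700* at -0.84, or -0.73. CKX5 was at -0.57 and ABCG14 at -0.13. What this component stands for was not tested.

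**Figure D5:**
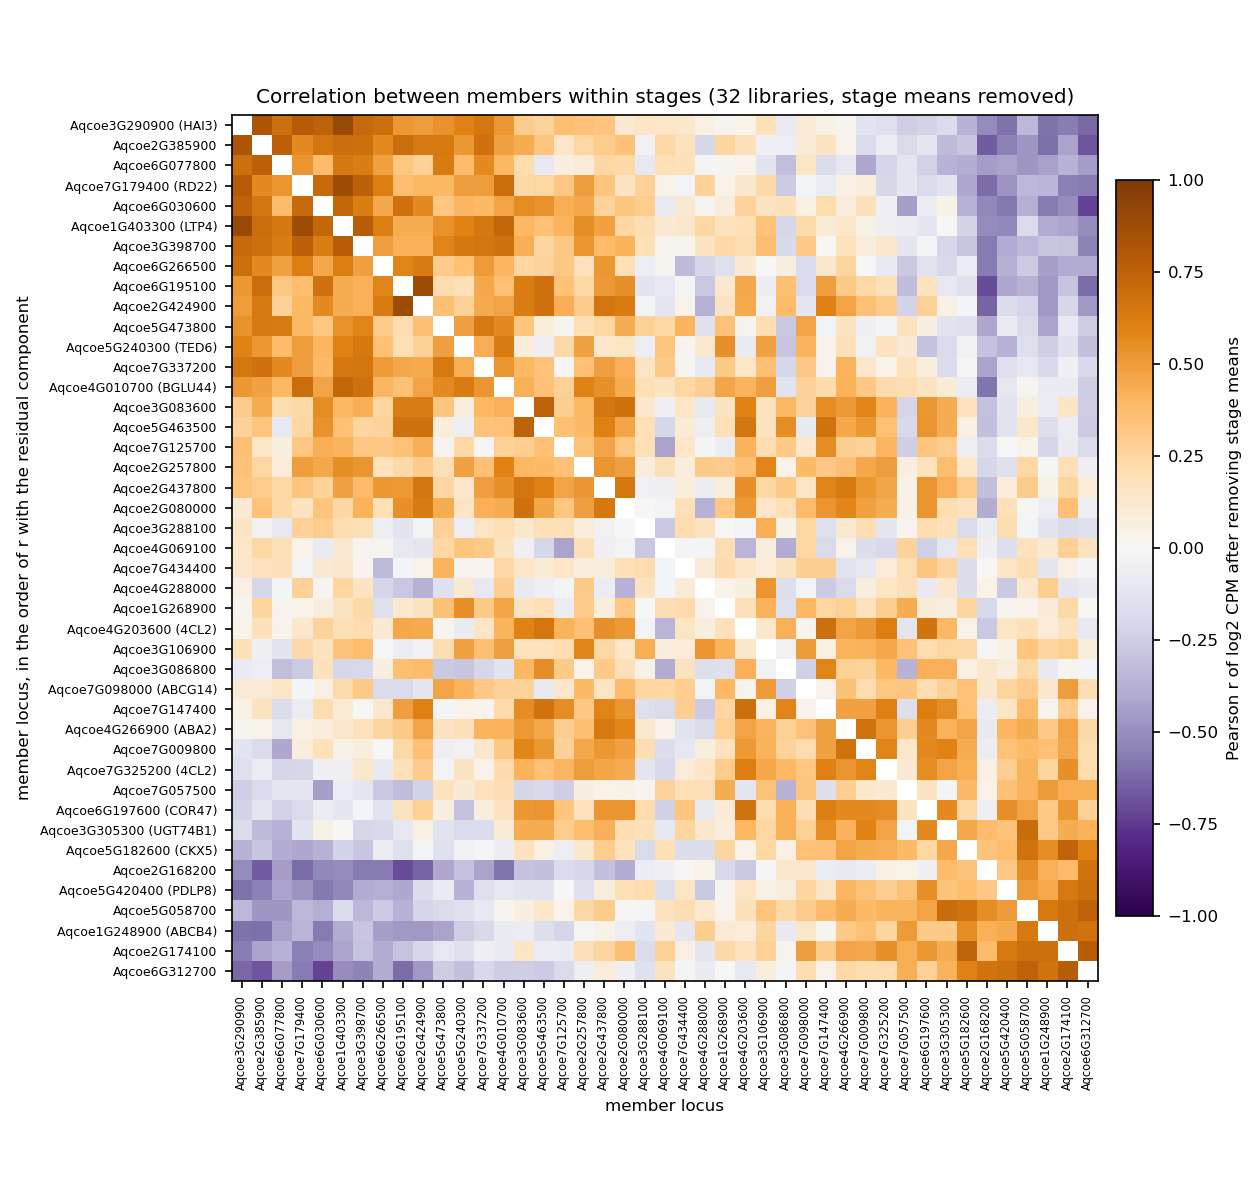
Pearson correlation between members (rows and columns, in the order of their correlation with the residual component) of log2 CPM across the 32 libraries after the stage means were taken away, from purple (-1) to orange (1). An orange block at the upper left holds HAI3, RD22 and LTP4, a second at the lower right holds *Aqcoe6G312700*, *Aqcoe2G174100* and *Aqcoe5G058700*, and the pairs between the blocks are mostly purple.

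The carpel and stomatal marker genes had higher means at s2 than at s1, though not all of them kept to a plateau. The paper itself reports AqCRC, AqMUTE and AqEPF1 as raised at s2 over s1 in these same libraries. Their rise is therefore not a separate observation about cell types, and the carpel list holds 1 gene. The carpel marker AqCRC had a lowest, median and highest level of 0.958, 12.6 and 27.5 TPM at s1, 24.6, 38.7 and 44.8 TPM at s2, 25.6, 30.6 and 38.8 TPM at s3, and 11.6, 34.6 and 40.6 TPM at s4. The sum of 3 stomatal lineage markers (AqMUTE, AqEPF1 and STOMAGEN) had medians of 9.0, 21.9, 30.1 and 38.5 TPM at s1, s2, s3 and s4, with ranges of 14.2 to 26.7 TPM at s2 and 3.61 to 13.9 TPM at s1. STOMAGEN averaged 5.09, 9.78, 15.3 and 22.1 TPM at s1, s2, s3 and s4, was not called between s2 and s1, and went past the plateau. AqCRC, AqMUTE and AqEPF1 met all conditions of the rule but the one on symbols, with s2 means of 37.3, 5.91 and 4.49 TPM and s1 means of 11.4, 2.01 and 1.70 TPM. The share of the members' levels that comes with these cell types was not tested.

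The other marker lists had sums that did not part s2 from s1 upwards. The sum of 2 anther markers (EXS and AMS) had medians of 13.7, 13.1, 18.4 and 81.4 TPM at s1, s2, s3 and s4. The sum of 4 cuticle genes had medians of 163, 173, 154 and 60.9 TPM, nearly all of it from CER2. Its CER4 loci were near 0, at 0.497 TPM at s2 and 0.168 TPM at s1 for the one and 0.0672 TPM at s2 and 0.0264 TPM at s1 for the other, neither called, and were listed at 0 in 2 and 8 of the 32 libraries. Both sums overlapped between the stages, with 9.83 to 15.8 TPM at s2 and 11.1 to 17.9 TPM at s1 for anther markers and 81.1 to 348 TPM at s2 and 79.5 to 277 TPM at s1 for cuticle genes. The meristem and boundary sum ran the other way, at 122 to 172 TPM at s2 and 215 to 351 TPM at s1, and AqPAN and AqCUC3 were called lower at s2. The part of these cell types in the members' levels was not tested.

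Annotation words placed the 28 named members among the 1919 annotated loci tested as follows, with the tables themselves drawn from these libraries and no share tested. The count of each group follows from which words matched and is not a full list of its members. Of 41 loci matched by hormone words, 4 were called higher at s2 than at s1 (median log2 fold change 0.41). Of these 41 loci 2 are members, the CKX5 homolog and the gibberellin-regulated locus. The ABA2, HAI3, ABCG14 and ABCB4 homologs were not matched by the hormone words. Of 82 loci matched by lipid, wax and cutin words, 5 were called higher (median 0.66), and 6 are members, the AWPM-19-like locus included. Of 81 cell wall loci, 8 were called higher and 1 lower (median 0.66), and 1 is a member. Among 108 transporters 5 were called higher and 1 lower (median 0.59), and 2 are members, and among 190 oxidoreductases 6 were called higher and 2 lower (median 0.60), and 5 are members. Of 26 loci matched by glycosyltransferase and glucosidase words 4 were called higher (median 0.52), and 1, the BGLU44 homolog, is a member. The words missed the member *Aqcoe3G305300*, annotated as a UDP-glucosyl transferase, and may have missed other loci in the same way.

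The tables also hold 171 loci with transcription factor words, of which 8 were called higher and 5 lower at s2 than at s1 (median log2 fold change -0.07), and 69 kinases, of which 2 were called higher and 2 lower, and 0 of either list are members. The rule itself left out AqMUTE and AqCRC, both transcription factors, for their symbols, so nothing is read from this count. Of 42 defence-related loci 4 were called higher (median 0.72), and 0 are members. Of 32 heat shock and chaperone loci 1 was called higher and 1 lower (median 0.48), and 0 are members. The median log2 fold change of all 20477 genes tested was 0.01. That of all annotated loci, which the study picked for differences between stages, was not computed, so the group medians have no matched background.

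The members nearest the threshold were *Aqcoe6G197600*, *Aqcoe2G437800* and *Aqcoe2G424900*, with ratios of 1.81, 1.82 and 1.85. Just outside it were *Aqcoe2G071800* at 7.34 TPM at s2 and 4.09 TPM at s1, *Aqcoe5G031000*, an alpha/beta-hydrolase, at 40.1 TPM at s2 and 22.4 TPM at s1, and *Aqcoe3G117200*, an aldehyde dehydrogenase, at 7.52 TPM at s2 and 4.21 TPM at s1. These 3 met the rest of the rule.

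Membership held for some loci whichever library was left out. The 7 loci that met the rule in all 32 cases were *Aqcoe2G168200*, *Aqcoe7G325200* (4CL2), *Aqcoe6G077800*, *Aqcoe4G010700* (BGLU44), *Aqcoe7G337200*, *Aqcoe5G420400* (PDLP8) and *Aqcoe3G106900* (gibberellin-regulated). *Aqcoe7G057500* and *Aqcoe2G437800* met it in 22 cases, the fewest. The number of members was 72 without s1 replicate 7, 24 without s2 replicate 4 and 23 without s2 replicate 5. With an s2 library left out, 6 of 7 must lie above the s1 libraries, which is a stricter condition than 6 of 8.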

How the data were processed

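RNA was read from 32 libraries (SMART-Seq v4 cDNA, Nextera XT), 8 per stage. The authors trimmed the reads and pseudo-aligned them with kallisto to the Goldsmith reference transcriptome of *Aquilegia*, and the deposited files give for each of 30023 loci the estimated counts, which need not be whole, and TPM, beside transcript lengths. Strand is not given in the sources used here. The members and all lists were chosen with earlier results of these data known. Stage and replicate number came from the labels.

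Levels are the deposited TPM (mean ± SD, n = 8). Estimated counts were rounded and fitted with edgeR 4.0.16 (R 4.3.3; TMM, quasi-likelihood test, 1 term per stage, genes above 1 CPM in 1 library or more, Benjamini-Hochberg adjustment over 20477 genes). DESeq2 1.42.0 was an alternative. The fit was checked on simulated counts of independent libraries with the same spread in every gene. That check does not cover libraries that share a plant or stand apart from their stage. Correlations used log2 CPM with a prior count of 2. Alternatives were other thresholds of the rule, stage medians, TMM-rescaled TPM, length-scaled TPM counts, RLE size factors, other filters, only the 16 libraries compared, a replicate block and each library left out in turn. Counts with 5 of 7 s2 libraries, and counts of the course after s2 without s1 replicate 7, s2 replicate 1 or s4 replicate 4, were added after seeing the data.

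The named loci are the 20 annotated and 4 other members with the highest ratios, the 6 most abundant, the top 3 of each annotation group, the 3 loci on either side of the 1.8 threshold and symbol loci meeting the rest of the rule. The other members named were chosen after their values were seen. The annotation at hand carried none of these locus identifiers, so coordinates and sequences are not analysed here. Only chromosome and order were taken from the locus names. The p-values set differences between stage means against the spread between libraries, some of which share a plant. At low levels the precision is set by the counts.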

Additional observations from a re-analysis of the deposited data

Results flagged for a closer look

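In 19 of 148 sets of 8 libraries (37 named loci at 4 stages), 1 library lay far from the others by Dixon's criterion at 95%. Chance alone meets it in about 1 in 20 sets of independent, normally distributed values. The sets here share libraries and were not shown to be normal, so no excess over chance is read from the count. In s4 replicate 4, *Aqcoe6G195100* was at 152 TPM, *Aqcoe6G030600* at 43.5 TPM, *Aqcoe3G290900* at 42.0 TPM and *Aqcoe7G125700* at 9.10 TPM, each far above the other s4 libraries, while *Aqcoe2G168200* was far below them at 2.36 TPM. In s1 replicate 2, *Aqcoe6G195100* was high at 56.0 TPM, *Aqcoe7G147400* at 31.2 TPM, *Aqcoe2G424900* at 5.92 TPM, *Aqcoe7G009800* at 5.81 TPM and *Aqcoe3G083600* at 3.32 TPM. In s1 replicate 7, *Aqcoe7G179400* was high at 21.5 TPM and *Aqcoe4G288000* at 6.31 TPM, and in s1 replicate 5 AqEPF1 (*Aqcoe1G319600*) was high at 3.70 TPM.

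Single high values also occurred in other libraries. At s2 *Aqcoe5G182600* reached 6.91 TPM in replicate 4. At s3 *Aqcoe4G010700* reached 999 TPM in replicate 4, *Aqcoe6G077800* 26.7 TPM in replicate 7, *Aqcoe4G288000* 10.3 TPM in replicate 8 and *Aqcoe2G080000* 8.73 TPM in replicate 2. At s4 *Aqcoe3G083600* reached 15.2 TPM in replicate 2.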

How the results depend on the processing

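The number of members, 43, followed the thresholds: 101 with a ratio of at least 1.5, 16 with at least 2.2, 20 with a plateau of 0.7 to 1.4, 21 with at least 5 TPM and 3 with all 8 s2 libraries above all 8 of s1. Stage medians gave 46 loci, 27 of them members, and TMM-rescaled TPM gave 45, 40 of them members. With each library left out in turn the number ran from 23 to 72, and with 5 of 7 s2 libraries, a choice made after seeing the data, from 39 to 72. Members called between s2 and s1 numbered 14, or 20 with DESeq2, 9 with only the 16 libraries compared, and 9 to 21 with a library left out (9 without s2 replicate 3, 21 without s1 replicate 7). All genes called numbered 122, or 200 with DESeq2, 81 with only the 16 libraries, and 73 to 160 with a library left out (73 without s1 replicate 6, 77 without s2 replicate 4). Members called among s2, s3 and s4 numbered 0 throughout. The mean within-stage correlation ran from 0.135 to 0.179. With the replicate number as a block, 15 members and 99 genes were called. The labels do not say whether the numbers pair the libraries. Between same-numbered s1 and s2 libraries 2 of 8 correlations were over 0.1, and 0 of 8 s2 libraries correlated best with their own number. Same-numbered s2 and s3 libraries correlated at -0.405 (replicate 6) to 0.622 (replicate 7), so these values do not settle a pairing. Of 259 fold changes of named loci under other settings, 244 kept the call, 9 lost it, 6 gained it and 0 changed sign. Loci at a few TPM rest on few reads per library, which limits their ratios.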

Other observations

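Loci that share a best Arabidopsis hit with a member did not all share its course. *Aqcoe4G266800*, next to the member *Aqcoe4G266900* and with the same hit *ABA2*, had means of 2.05, 4.34, 6.89 and 7.04 TPM at s1, s2, s3 and s4, the same step from s1 with a further gain that takes it past the plateau. The counts of *Aqcoe4G266900* were not whole in 93.8% of libraries, and whether its shared reads are those of this neighbour was not tested. *Aqcoe3G288200*, next to the DC1 domain member *Aqcoe3G288100*, had means of 0.353, 1.25, 2.26 and 4.40 TPM. *Aqcoe1G403100*, with the same hit *LTP4* as the member *Aqcoe1G403300*, went the other way, at 5644, 4541, 3727 and 2428 TPM. *Aqcoe5G459800*, sharing its hit with *Aqcoe7G009800* of the pectin methylesterase and invertase inhibitor family, was at 6.25, 10.4, 10.9 and 13.0 TPM.

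The members were spread over all 7 chromosomes as the locus names give them, with 9 on chromosome 7 and 3 on chromosome 1, which hold 15.3% and 17.8% of the genes tested. No 2 members were within 20 loci of each other. Of 111 neighbouring loci (up to 2 loci away in the order of names) with at least 2 TPM at s2, 1 had an s2 mean of at least 1.8 times its s1 mean, *Aqcoe4G266800*, and the median ratio was 1.06.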
